A study of Mus musculus with 18 samples.

Results

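The D-type cyclins (Ccnd1, Ccnd2, Ccnd3), the E-type cyclins (Ccne1, Ccne2) and the inhibitors of their kinases (Cdkn1a, Cdkn1b, Cdkn2a, Cdkn2b, Cdkn2c) were followed by RNA-seq across 6 groups of mouse pluripotent stem cells. These 10 genes were chosen by name, as the cyclins and inhibitors that act in G1, and all 10 were found among the 35773 genes counted and among the 16901 genes with enough counts to be tested. The samples were 18 polyA libraries, 3 from each group, called biological replicates in the study. All 6 groups are labelled wild type and 129S2/SvPasCrl, while the study's methods describe lines from crosses of mixed background.

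The 6 groups differ in culture and in origin. ESCs were naive embryonic stem cells kept with LIF and the inhibitor pair known as 2i. AFSCs were primed cells derived from blastocysts and kept in activin A and FGF2. ASCs, advanced pluripotent stem cells, came from AFSCs moved to ABCL medium, which holds activin A, BMP4, the GSK3 inhibitor CHIR99021 and LIF. ESC-ASCs came from ESCs moved to the same ABCL medium. EpiLCs were epiblast-like cells and EpiSCs were epiblast stem cells, both models of the epiblast after implantation. How many separate lines stand behind the 3 samples of a group is not given in the sources used here, so p-values measure the spread between these samples only.

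In G1, D-type cyclins bind CDK4 and CDK6, and E-type cyclins bind CDK2; both kinases phosphorylate the RB family and release the E2F factors that drive the genes of S phase. Inhibitors of the CIP/KIP family, encoded by Cdkn1a (p21) and Cdkn1b (p27), act on CDK2 complexes, and those of the INK4 family, encoded by Cdkn2a (p16), Cdkn2b (p15) and Cdkn2c (p18), act on CDK4 and CDK6. Mouse embryonic stem cells are known for a short G1 phase. RNA levels are not protein levels or kinase activity, and in bulk RNA fewer cells that express a gene and less RNA per cell cannot be told apart.

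Depth and identity were checked first. Total counts lay between 4961934 and 9906473 in 15 samples and between 17813619 and 18071600 in the 3 ESC-ASC samples, whose file headers also name another counting folder and other alignment names than for the ESC samples, so depth, processing and a possible difference of cell line cannot be told apart from group for ESC-ASCs. The headers call the AFSC alignments Blastocyst.ASC, and the sample labels were followed. A list of 6 naive pluripotency genes summed to between 2819 and 4878 normalized counts per kb in ESCs, ASCs and ESC-ASCs and to between 9.02 and 121 in EpiLCs, AFSCs and EpiSCs. A list of 6 primed or formative genes summed to between 971 and 2324 in the latter groups and to between 49.9 and 100 in the former. Among markers of other cells, a fibroblast list of 8 genes summed to between 17.3 and 127, highest in EpiLCs and with 3 of the 8 at 0 in ESC-ASCs and 2 in EpiSCs, and a primitive endoderm list of 6 genes to between 70.2 and 71.5 in EpiSCs against at most 25.1 elsewhere. A trophoblast list of 6 genes summed to between 131 and 181 in ESCs, ASCs and ESC-ASCs and to between 10.3 and 27.7 in the rest. The part of such cells in the results was not tested.

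Levels below are normalized counts per kb, that is counts divided by the sample's DESeq2 size factor and by the gene's exonic length in kb. A gene was called higher or lower where the edgeR fit of all genes and all 18 samples gave it a quasi-likelihood p below 0.05 after Benjamini-Hochberg adjustment. Each of the 10 genes was called in 6 to 14 of the 15 possible pairs of groups, and in those pairs between 39.4% and 72.2% of all tested genes were called. With the 6 groups put in order of their mean for each gene, 20 of the 50 neighbouring pairs differed by this test. No such count over all genes is at hand, so 20 of 50 is a description only. Samples of a group usually lay close together against the distance between groups, with Ccne2, Cdkn2b and Cdkn2c as the genes with the widest spread. Replicate 1 was the lowest of its 3 samples in 5 of 6 groups for each of Ccnd1, Cdkn1a, Cdkn1b and Cdkn2b. It was the highest in 4 of 6 for Ccne2. Its part in the results was not tested beyond leaving samples out and a fit with replicate number as a block.

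**Figure D1:**
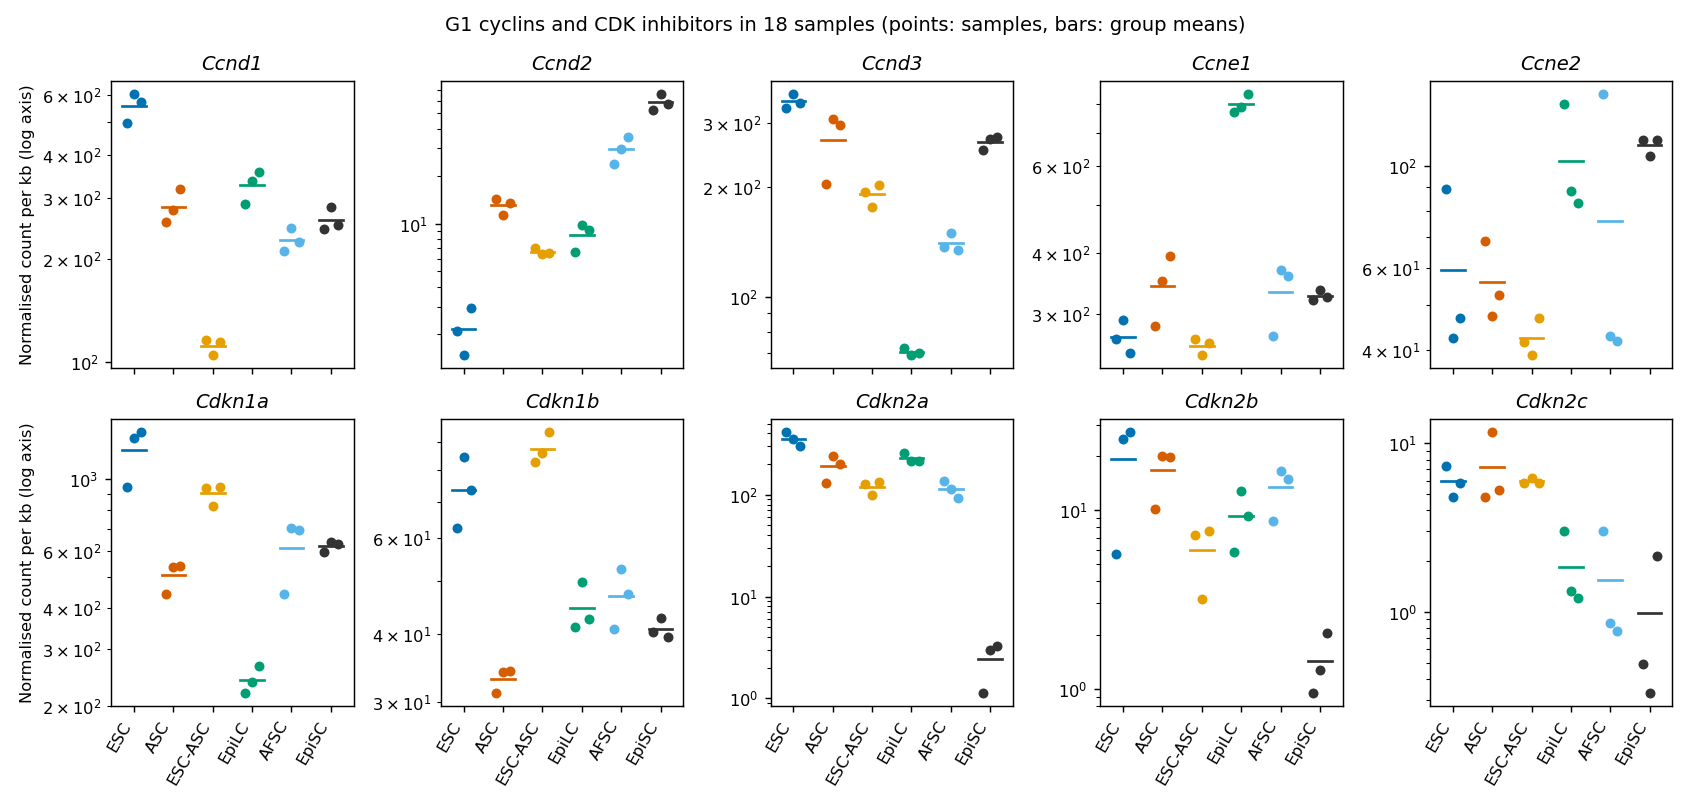
Level of each member in each of the 18 samples, in normalized counts per kb on a log axis, with a panel per gene; points are samples and bars are the means of 3. Ccne1 stands apart in EpiLCs, Ccnd2 is lowest in ESCs and highest in EpiSCs, and Cdkn2a lies at 1.12 to 3.26 in EpiSCs against at least 91.9 in every other sample.

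Cyclin D1, encoded by Ccnd1 on chromosome 7 (144929931 to 144939925, minus strand, GRCm38), is the D-type cyclin most tied to growth factor signals. Its level was 498, 603 and 570 in the 3 ESC samples and 116, 105 and 115 in the 3 ESC-ASC samples. Every ESC sample lay above every sample of the other groups and every ESC-ASC sample below them. The means of EpiLCs (328 ± 35.5, SD, n = 3), ASCs (284 ± 31.9), EpiSCs (259 ± 20.8) and AFSCs (227 ± 17.4) lay between, and no 2 neighbours in that order differed by the test. The log2 fold change of ASCs against ESCs was -0.99 ± 0.13 (SE, adjusted p = 4.38e-06) and that of ESC-ASCs against ESCs was -2.33 ± 0.13 (adjusted p = 6.34e-11). Of the 4709 exonic bases of Ccnd1, 23.4% overlap LTO1 on the opposite strand, and the unstranded counting gave fragments there to both genes.

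Cyclin D2, encoded by Ccnd2 on chromosome 6 (127125162 to 127152193, minus strand), had the widest range of the 5 cyclins. Its level was 2.09, 1.48 and 2.96 in ESCs, which rests on 10 to 25 counts per sample, and 52.3, 66.1 and 57.4 in EpiSCs. The EpiSC samples lay above all others, the ESC samples lay below all others, and EpiSCs were 26.3-fold above ESCs in the fit (log2 fold change 4.72 ± 0.24, adjusted p = 3.01e-12). Between these extremes the means were 29.7 ± 5.80 in AFSCs, 13.1 ± 1.66 in ASCs, 8.53 ± 1.69 in EpiLCs and 6.67 ± 0.326 in ESC-ASCs. All steps of this order passed the test except that from EpiLCs to ESC-ASCs (adjusted p = 0.101), and the step from ASCs to EpiLCs was lost without replicate 1 of either group (log2 fold changes of 0.51 without the ASC sample and 0.49 without the EpiLC sample). ASCs were thus 5.84-fold above ESCs and 2.31-fold below AFSCs in the fit (adjusted p = 1.35e-07 and 2.14e-05). Exons of 2 other genes overlap Ccnd2, and Gm43126 on the opposite strand shares 3.95% of its exonic bases. Over the 18 samples Gm43126 had 389 counts and Ccnd2 3385. The part of shared fragments in the Ccnd2 counts was not tested.

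Cyclin D3, encoded by Ccnd3 on chromosome 17 (47505051 to 47599691, plus strand), was lowest in EpiLCs, at 72.2, 69 and 69.9. The ESC samples were highest, at 331, 361 and 342. The 3 EpiLC samples lay below every other sample, and the fall from ESCs to EpiLCs was 4.88-fold (log2 fold change -2.29 ± 0.14, adjusted p = 7.59e-11). The difference between ASCs (270 ± 57.1) and EpiSCs (267 ± 11.2) did not pass the test (log2 fold change 0.00 ± 0.13), ESC-ASCs (191 ± 13.3) came next and AFSCs (140 ± 8.30) followed. The small difference between ASCs and ESCs (log2 fold change -0.38, adjusted p = 0.0242) was lost without ASC replicate 1, which at 204 lay below the 309 and 296 of the other ASC samples, and the value was then -0.21. It was also lost without ESC replicate 2 (-0.34), ESC replicate 3 (-0.38) or ESC-ASC replicate 2 (-0.34). Ccnd3 shares 4.11% of its exonic bases with Bysl on the opposite strand.

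Set side by side per kb, the 3 D-type cyclins had a different balance in each group. Ccnd1 made up 80.5% ± 1.75 of their summed level in EpiLCs, 61.6% ± 1.46 in ESCs, 57.2% ± 0.523 in AFSCs, 50.4% ± 3.81 in ASCs, 44.3% ± 1.25 in EpiSCs and 36.2% ± 0.705 in ESC-ASCs. Ccnd2 made up 0.243% in ESCs and 10% in EpiSCs, the lowest and highest of its means. Ccnd3 led in ESC-ASCs, at 61.7% ± 0.826, lay close to Ccnd1 in EpiSCs, at 45.7% ± 1.7, and was lowest in EpiLCs, at 17.4% ± 1.96. The summed level was highest in ESCs, at 904 ± 67.9, and lowest in ESC-ASCs, at 310 ± 19.0. Without the division by length, Ccnd3 led in every group but EpiLCs, with 53.4% instead of 38.2% in ESCs, 61.4% instead of 47.3% in ASCs, 47.7% instead of 35.4% in AFSCs and 57% in EpiSCs. These shares are descriptions and were not tested.

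**Figure D2:**
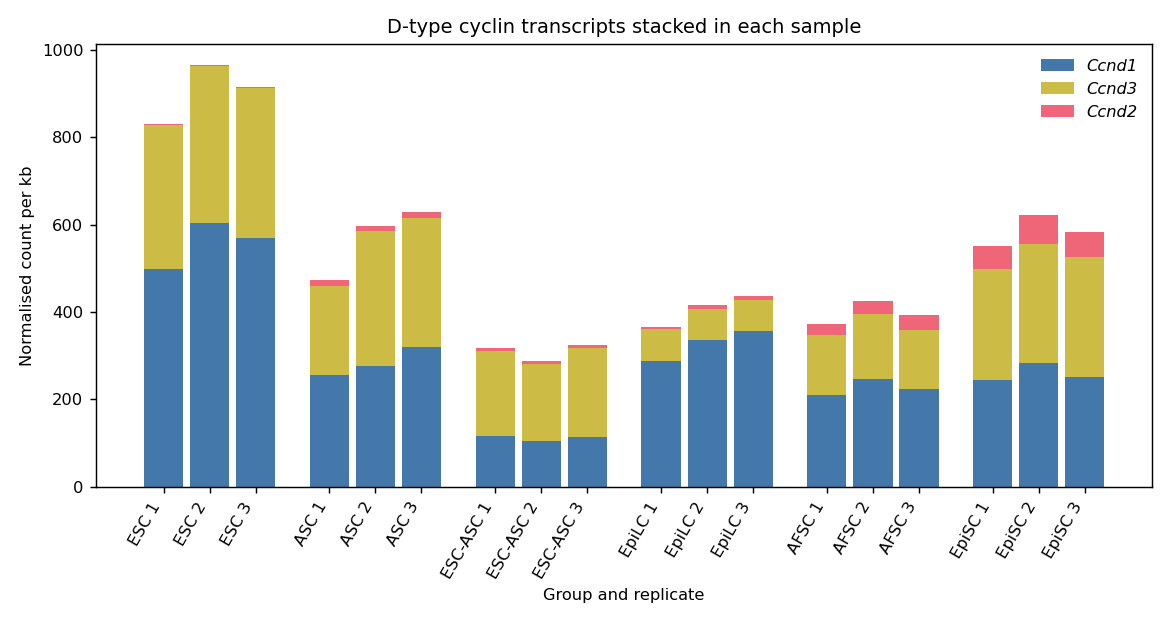
Levels of Ccnd1, Ccnd3 and Ccnd2 stacked in each of the 18 samples, in normalized counts per kb, with groups side by side. The 3 ESC samples have the tallest stacks (831 to 965), EpiLCs are mostly Ccnd1, and the Ccnd2 layer is seen best in AFSCs and EpiSCs.

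Cyclin E1, encoded by Ccne1 on chromosome 7 (38097984 to 38107534, minus strand), was the E-type cyclin with the higher level per kb in every sample. Its level was 770, 790 and 838 in EpiLCs. No other sample exceeded 394, and the means of the other groups ran from 259 ± 10.2 in ESC-ASCs to 343 ± 55.4 in ASCs. EpiLCs were 2.97-fold above ESCs (log2 fold change 1.57 ± 0.14, adjusted p = 9.95e-09) and EpiSCs 2.47-fold below EpiLCs (adjusted p = 1.54e-07). None of the 4 neighbouring steps among the other 5 groups passed the test. Across wider steps, ASCs (adjusted p = 0.0185), AFSCs (0.0168) and EpiSCs (0.0283) were called above ESC-ASCs. The difference of ASCs against ESCs (log2 fold change 0.32, adjusted p = 0.053) lay at the threshold, and it passed with DESeq2 (0.34).

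Cyclin E2, encoded by Ccne2 on chromosome 4 (11191351 to 11204779, plus strand), can stand in for cyclin E1 on CDK2. Its level was 143, 42.7 and 41.8 in the 3 AFSC samples and 114, 105 and 114 in EpiSCs. AFSC replicate 1 lay above every EpiSC sample and the other AFSC samples lay far below. Replicate 1 was also the highest sample in ESCs (89.0 against 42.3 and 46.9), ASCs (68.8 against 47.2 and 52.4) and EpiLCs (136 against 88.3 and 83.0). The log2 fold change of AFSCs against EpiSCs was -0.55 (adjusted p = 0.251), and without AFSC replicate 1 it was -1.38 and passed the test. EpiLCs against ESCs likewise went from 0.82 (adjusted p = 0.0698) to 1.19 and a pass without ESC replicate 1. No step between neighbouring groups in the order of Ccne2 means passed the test, although 6 of all 15 pairs of groups were called. Ccne2 shares 17.4% of its exonic bases with Ints8 on the opposite strand. Ints8 had 13143 counts over the 18 samples and Ccne2 4680, and the part of shared fragments in the Ccne2 counts was not tested. Together the E-type cyclins summed to 902 ± 21.8 in EpiLCs and to between 302 and 438 on average elsewhere, and Ccne1 made up 74.7% to 88.6% of the sum on average.

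p21, encoded by Cdkn1a on chromosome 17 (29090979 to 29100722, plus strand), is the inhibitor best known as a target of p53. In RefSeq (GRCm38.p6) its upstream start lies just after chr17:29090729-29090978, and this window is shown because it holds a p53 response element, given in capitals:
Cdkn1a upstream start: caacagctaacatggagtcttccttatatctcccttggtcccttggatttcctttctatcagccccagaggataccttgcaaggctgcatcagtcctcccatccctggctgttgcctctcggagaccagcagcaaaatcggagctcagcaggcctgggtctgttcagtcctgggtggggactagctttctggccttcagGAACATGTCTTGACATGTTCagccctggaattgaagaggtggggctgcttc
The search, by the p53 response element with exact cores and at most 1 other letter off, looked at the 250 bases before each start on both strands. It found a match in 15 of 32851 windows, or 0.0457%, and the match above ends 32 bases before the start. The second Cdkn1a start has no match in its window. A match is a description of letters, and the gene counts do not tell the starts apart.

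Cdkn1a had the highest level per kb of the 5 inhibitors in every sample except EpiLC replicate 1, where Cdkn2a (255) exceeded it (219). Its level was 942, 1339 and 1392 in ESCs and 219, 238 and 265 in EpiLCs. The EpiLC samples lay below all others, and ESCs lay above ASCs, AFSCs, EpiSCs and EpiLCs without overlap. EpiLCs were 5.07-fold below ESCs (log2 fold change -2.34 ± 0.18, adjusted p = 2.2e-09) and ASCs 2.46-fold below ESCs (-1.30 ± 0.18, adjusted p = 7.33e-06). ESC-ASCs, at 941, 825 and 944, stayed 1.79-fold above ASCs (adjusted p = 0.000552). Their difference from ESCs (-0.46, adjusted p = 0.0281) was lost without ESC replicate 2 (-0.38) or 3 (-0.36), or without ESC-ASC replicate 1 (-0.47), 2 (-0.37) or 3 (-0.47). AFSCs, EpiSCs and ASCs, with means of 615, 623 and 506, lay between, and no step between neighbours among them passed the test. Without AFSC replicate 1 (442 against 708 and 695), ASCs were called lower than AFSCs (-0.50).

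p27, encoded by Cdkn1b on chromosome 6 (134920401 to 134925513, plus strand), restrains cyclin E and CDK2. Its level was 82.7, 86 and 93.8 in ESC-ASCs and 31.1, 34.0 and 34.2 in ASCs. These are the highest and the lowest groups, although both were grown in ABCL medium, and the difference was 2.66-fold (log2 fold change 1.41 ± 0.14, adjusted p = 1.72e-07). The step from ESC-ASCs to ESCs (73.5 ± 10.8) did not pass the test (adjusted p = 0.15), and ASCs were 2.27-fold below ESCs (adjusted p = 2.02e-06). AFSCs, EpiLCs and EpiSCs lay between 40.9 and 46.9 on average, and no step between neighbours among them passed the test.

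The INK4 genes Cdkn2a (chromosome 4, 89274471 to 89294653) and Cdkn2b (89306289 to 89311032) lie next to each other on the minus strand. Cdkn2a also makes p19ARF, which acts on p53 through MDM2, from its own first exon, and the gene counts pool both transcripts. The windows of 250 bases before the RefSeq starts are shown because the transcripts of both genes were nearly missing from EpiSCs, with the E2F letters TTTCCCGC in capitals:
Cdkn2a upstream start (chr4:89294620-89294869): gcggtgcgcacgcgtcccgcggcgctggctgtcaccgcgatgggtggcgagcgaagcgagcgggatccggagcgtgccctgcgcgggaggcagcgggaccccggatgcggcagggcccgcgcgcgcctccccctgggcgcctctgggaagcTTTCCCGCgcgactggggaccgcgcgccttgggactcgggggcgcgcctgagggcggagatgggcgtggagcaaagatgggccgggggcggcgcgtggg
Cdkn2a downstream start (chr4:89282193-89282442): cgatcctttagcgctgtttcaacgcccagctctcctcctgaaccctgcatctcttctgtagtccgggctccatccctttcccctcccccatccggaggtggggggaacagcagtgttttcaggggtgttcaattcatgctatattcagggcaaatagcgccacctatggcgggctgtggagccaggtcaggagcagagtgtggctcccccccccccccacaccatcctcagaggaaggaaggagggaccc
Cdkn2b start (chr4:89311033-89311282): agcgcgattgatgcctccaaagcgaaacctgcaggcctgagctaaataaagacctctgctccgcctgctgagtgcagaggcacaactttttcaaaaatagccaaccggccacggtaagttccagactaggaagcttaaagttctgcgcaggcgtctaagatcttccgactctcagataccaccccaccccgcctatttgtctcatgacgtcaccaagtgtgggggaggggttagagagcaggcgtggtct
All are on the minus strand of GRCm38.p6. The E2F search took TTTGGCGC, TTTCCCGC, TTTCGCGC and TTTGCCGC on both strands, and 1.86% of all 32851 windows held at least 1 of them. Among 11 windows of 7 member genes, the upstream Cdkn2a window alone held a match. CpG dinucleotides numbered 40 in that window, 7 before the downstream start and 12 before Cdkn2b, with a median of 6 over all windows.

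Cdkn2a had 1, 4 and 4 counts in the 3 EpiSC samples, a level of 1.12, 3.01 and 3.26. In the other groups its level was between 91.9 and 410, on 104 to 359 counts per sample. EpiSCs therefore stood apart without overlap, and the counts in ESCs were 133-fold those in EpiSCs after scaling (95% counting interval 69.7 to 292, exact binomial, counting error only). Against AFSCs, the group nearest in level, the ratio was 43.1 (22.4 to 95.1) and the fitted log2 fold change of AFSCs against EpiSCs was 5.41 ± 0.35 (adjusted p = 6.44e-10). Cdkn2b moved with it: 1, 2 and 3 counts in EpiSCs gave levels of 0.942, 1.27 and 2.06, below all other samples. The Cdkn2b ratio to EpiSCs was 14.7 in ESCs (6.43 to 41.6), 11.4 in ASCs (4.96 to 32.2) and 4.08 in ESC-ASCs (1.75 to 11.6).

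Neighbouring genes were compared with the pair. Mtap, which encodes an enzyme of methionine salvage and starts 158 kb from the Cdkn2a start, had a level of 193 ± 8.57 in EpiSCs and of 174 to 227 on average elsewhere. None of its 5 differences from EpiSCs passed the test, with log2 values for EpiSCs minus the other group from -0.25 to 0.14. Klhl9 was 144 ± 13.8 in EpiSCs and 149 ± 22.3 in AFSCs, and EpiSCs were above each of the other 4 groups by the test. Predicted genes between Klhl9 and Mtap differed in other ways, as Gm13275 did at 2.49 ± 0.94 in EpiSCs and 40.4 ± 10.5 in AFSCs, and copies with near-identical sequence can share reads there. Of 54 genes within 1 Mb of Cdkn2a, 19 had enough counts to be tested.

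**Figure D3:**
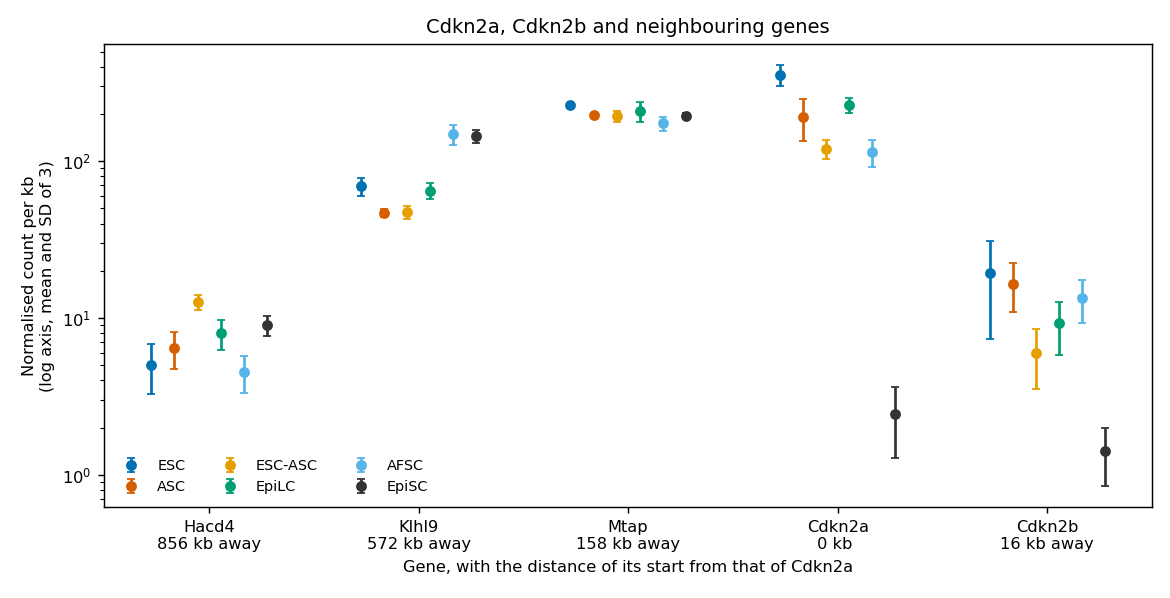
Mean and SD of 3 samples for Cdkn2a, Cdkn2b and 3 neighbouring genes on chromosome 4, in normalized counts per kb on a log axis, with the distance between gene starts under each name. EpiSCs lie far below the other groups for Cdkn2a and lowest for Cdkn2b, while the Mtap means lie between 174 and 227.

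Outside EpiSCs, Cdkn2a was highest in ESCs, at 410, 356 and 302. It was 227 ± 24.6 in EpiLCs, 191 ± 56.9 in ASCs, 120 ± 17.3 in ESC-ASCs and 114 ± 22.4 in AFSCs. The steps from ESCs to EpiLCs and from ASCs to ESC-ASCs passed the test; the latter was lost without ASC replicate 2 (log2 fold change -0.47 in place of -0.66). Cdkn2b was low everywhere, at 4 to 34 counts per sample outside EpiSCs, and ESC replicate 1 (5.65) lay far below ESC replicates 2 and 3 (25.1 and 27.2). Only the step from ESC-ASCs to EpiSCs passed the test among neighbours for Cdkn2b (adjusted p = 0.0158).

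p18, encoded by Cdkn2c on chromosome 4 (109660876 to 109667189, minus strand), lies apart from the other INK4 genes. Its counts were 10 to 34 per sample in ESCs, ASCs and ESC-ASCs and 1 to 7 in EpiLCs, AFSCs and EpiSCs. The groups with high naive markers lay above the others without overlap, with means of 5.94 to 7.24 against 0.983 to 1.84. ASCs were 4.78-fold above AFSCs (log2 fold change 2.26 ± 0.55, adjusted p = 0.00142), and without AFSC replicate 1, the sample with 6 counts against 2 and 2, the value was 3.07. EpiLCs against ESCs gave -1.67 (adjusted p = 0.0133), a call lost without EpiLC replicate 2 or 3 (-1.47 for both).

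ASCs were next compared with the cells around them, group by group. Against ESCs, which asks what sets ASCs apart from the naive state in 2i/LIF, 6 of 10 members were called, where 50.3% of all tested genes were. Ccnd2 rose (26.4% of all genes were higher), and Ccnd1, Ccnd3, Cdkn1a, Cdkn1b and Cdkn2a fell (23.9% were lower). With a log2 fold change beyond 1 also required, 3 members remained, beside 25.8% of all genes. The median log2 fold change was -0.35 over the members and 0.02 over all tested genes. Against AFSCs, their parental cells, 5 of 10 were called beside 64% of all genes: Ccnd3, Cdkn2a and Cdkn2c were higher (32.8% of all genes were) and Ccnd2 and Cdkn1b lower (31.2%). Only Ccnd2 and Cdkn2c of these changed by a log2 value beyond 1, as 39.4% of all genes did. Ccnd1 lay at the threshold there (log2 fold change 0.30, adjusted p = 0.050) and passed with DESeq2.

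Against EpiLCs, 7 members were called beside 59.8% of all genes. Ccnd2, Ccnd3, Cdkn1a and Cdkn2c were higher in ASCs (31.4% of all genes were), and Ccne1, Ccne2 and Cdkn1b were lower (28.4%). Beyond a log2 value of 1 there were 4 members and 34.8% of all genes. Ccne2 (-0.89, adjusted p = 0.0446) was lost in 10 of the 18 fits that left out a sample, down to -0.59 without EpiLC replicate 1, and Cdkn1b (-0.46) without EpiLC replicate 2 (-0.36). Against EpiSCs, 5 members were called beside 66.5% of all genes: the 3 INK4 genes were higher in ASCs (35.9% of all genes were) and Ccnd2 and Ccne2 lower (30.7%). Beyond a log2 value of 1 there were 4 members and 42.4% of all genes. Ccne2 (-0.99) was lost without ASC replicate 2 (-0.87), ASC replicate 3 (-0.94) or EpiSC replicate 3 (-0.98). The Ccnd1, Ccnd3, Ccne1, Cdkn1a and Cdkn1b differences between ASCs and EpiSCs did not pass, with log2 fold changes between -0.32 and 0.12.

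The steps among the other groups were read in the same way. From ESCs to EpiLCs, the exit from the naive state, 9 of 10 members were called beside 55.3% of all genes. Ccnd2 and Ccne1 rose (28.7% of all genes did) and 7 members fell (26.6% did), 6 members passing a log2 value of 1 in either direction (34% of all genes). Those that fell included Ccnd1, Ccnd3 and all 5 inhibitors, and the Cdkn2b call (-1.12) was lost in 7 of the 18 fits that left out a sample. The median was -0.74 over the members and 0.06 over all genes. Between EpiLCs and EpiSCs 7 members were called (48.6% of all genes), of which Ccnd2, Ccnd3 and Cdkn1a were higher in EpiSCs (21.5%) and Ccnd1, Ccne1, Cdkn2a and Cdkn2b lower (27%). Beyond a log2 value of 1 there were 6 members and 28.6% of all genes. The Ccnd1 call there (log2 fold change -0.35) was lost in 5 of the 18 fits that left out a sample. Between the primed lines, AFSCs and EpiSCs, 4 members were called (39.4% of all genes): Cdkn2a and Cdkn2b were higher in AFSCs (21.6%), and Ccnd2 and Ccnd3 lower (17.8%). The first pair alone passed a log2 value of 1, beside 20.8% of all genes.

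The other 6 pairs of groups complete the picture. All 10 members were called between EpiSCs and ESC-ASCs (72.2% of all genes), 9 between EpiSCs and ESCs (61.2%), and 9 between AFSCs and ESC-ASCs (69%). Between EpiLCs and ESC-ASCs 8 were called (64.1%), between AFSCs and ESCs 7 (60.5%) and between AFSCs and EpiLCs 6 (47.1%). In the last pair, Ccnd2 (log2 fold change 1.79), Cdkn1a (1.35) and Ccnd3 (0.99) were higher in AFSCs (22.6% of all genes were), and Ccne1 (-1.27), Cdkn2a (-0.99) and Ccnd1 (-0.53) were lower (24.4%).

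**Figure D4:**
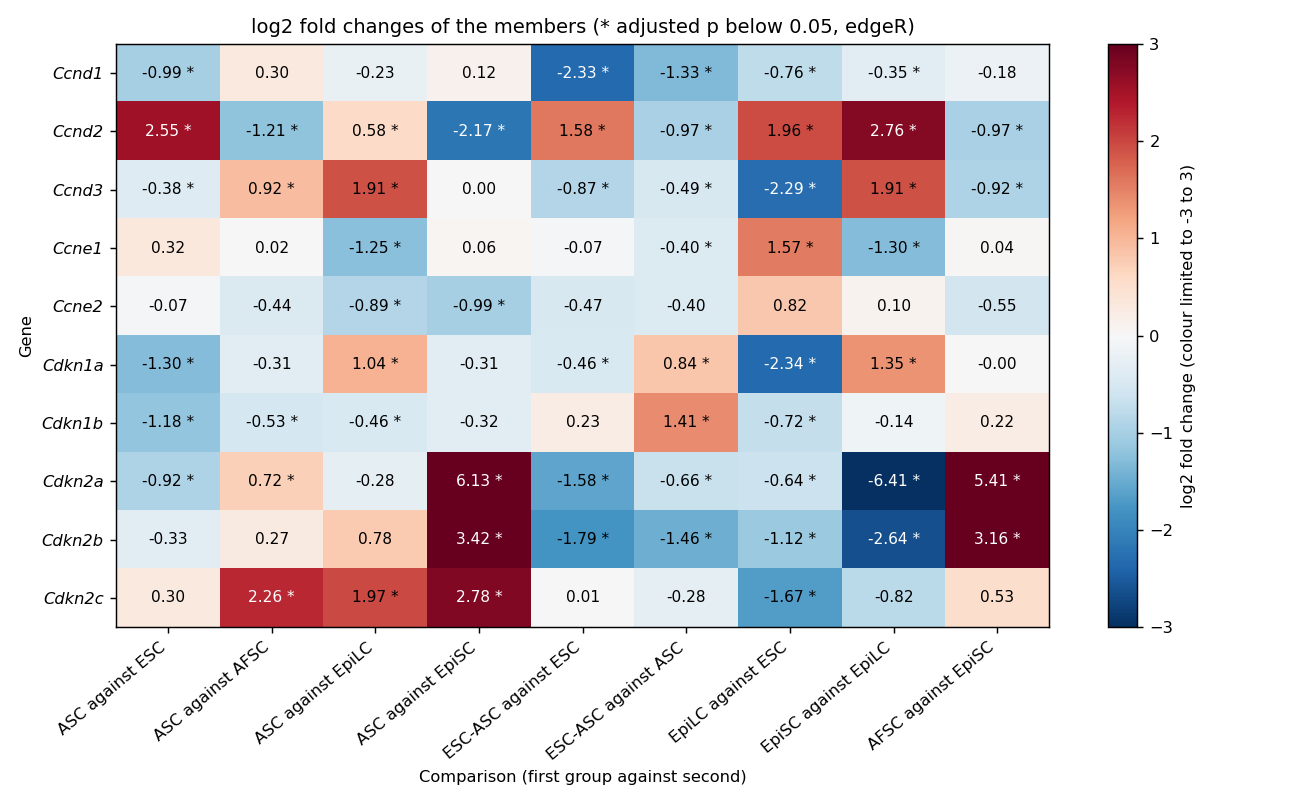
log2 fold change of each member (rows) in 9 comparisons (columns), with the colour limited to -3 to 3 and a star where the edgeR adjusted p is below 0.05. Cdkn2a has the values farthest from 0, all against EpiSCs, and the EpiLC against ESC column has 9 starred genes of 10.

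ABCL medium was reached from AFSCs or from ESCs, and the comparison of ASCs with AFSCs and of ESC-ASCs with ESCs asks how the same genes changed on each route. From ESCs, 6 members were called beside 60.1% of all genes: Ccnd2 rose (30.6% of all genes did), and Ccnd1, Ccnd3, Cdkn1a, Cdkn2a and Cdkn2b fell (29.6%). Beyond a log2 value of 1 there were 4 members and 36.4% of all genes. The change differed between the routes, by the contrast of the 2 changes in the same fit, for 7 members, beside 58.5% of all genes. The difference was above 0 for 5 of them (30.8% of all genes) and below 0 for 2 (27.7%), and 6 passed a log2 value of 1 (45.2%). Ccnd2 fell from AFSCs (-1.21) and rose from ESCs (1.58), while Ccnd3 (0.92 and -0.87) and Cdkn2a (0.72 and -1.58) rose from AFSCs and fell from ESCs. Ccnd1 changed by -2.33 from ESCs and by 0.30, not called, from AFSCs, and the difference was 2.63 ± 0.18 (adjusted p = 4.67e-10). Cdkn1b fell from AFSCs (-0.53) with 0.23 from ESCs, Cdkn2b fell from ESCs (-1.79) with 0.27 from AFSCs, and Cdkn2c rose from AFSCs (2.26) with 0.01 from ESCs. The contrast of the routes also carries the differences between AFSCs and ESCs at the start.

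The end points of the routes also differed. Between ESC-ASCs and ASCs, in the same medium, 8 members were called beside 50.7% of all genes. Cdkn1a and Cdkn1b were higher in ESC-ASCs (23% of all genes were), and Ccnd1, Ccnd2, Ccnd3, Ccne1, Cdkn2a and Cdkn2b were lower (27.7% were), and 3 members passed a log2 value of 1 (24.5%). The Ccne1 call (-0.40) was lost without ASC replicate 3 (-0.29), ESC-ASC replicate 2 (-0.38) or ESC-ASC replicate 3 (-0.39). Every contrast with ESC-ASCs also carries their greater depth, separate counting folder and possibly other cell line, which cannot be told apart from the group.

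**Figure D5:**
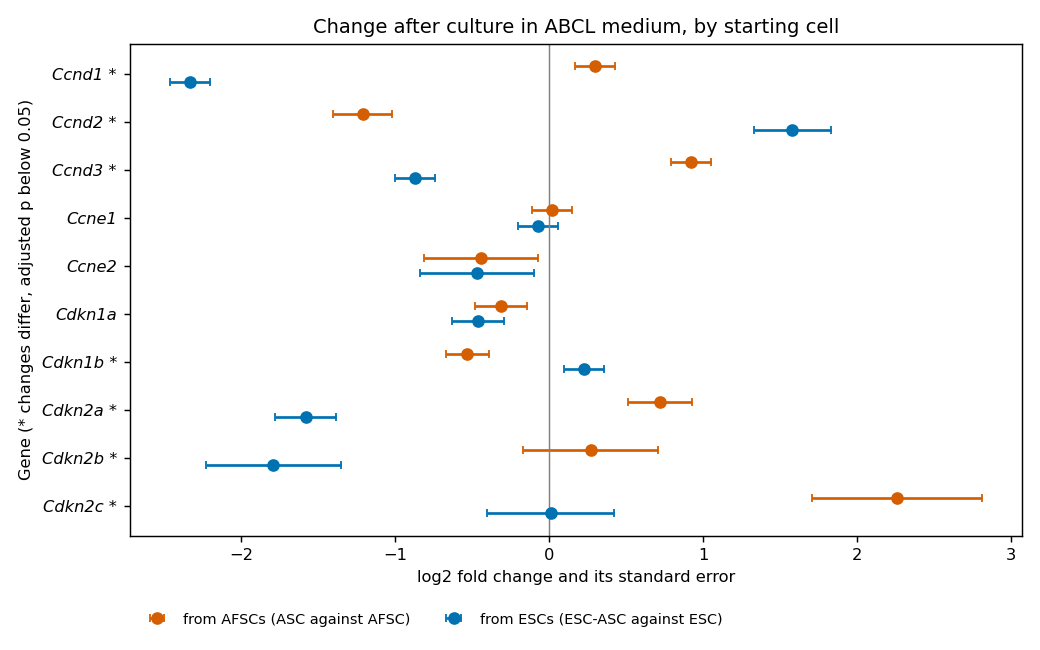
log2 fold change with its standard error for each member after culture in ABCL medium, from AFSCs (ASC against AFSC) and from ESCs (ESC-ASC against ESC); stars mark the 7 genes whose changes differ at an edgeR adjusted p below 0.05. Ccnd2, Ccnd3 and Cdkn2a have called changes of opposite sign, and Ccne1, Ccne2 and Cdkn1a lie close together.

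Other genes of the G1 machinery were read from lists by role. Of 28 other G1 to S genes, 6 were higher and 9 lower in ASCs than in ESCs, and 7 were higher and 14 lower than in AFSCs. Over all tested genes, 26.4% were higher and 23.9% lower against ESCs, and 32.8% were higher and 31.2% lower against AFSCs, and the list counts that follow for these comparisons are to be read against the same shares. Cdk4, a partner of the D-type cyclins, was 954 ± 167 in ASCs and 1633 ± 135 in ESCs (log2 fold change -0.80, adjusted p = 0.000155). Cdkn1c, which encodes p57, the third CIP/KIP inhibitor, had the largest rise of that list in both comparisons, from 12.3 ± 4.5 in ESCs and 4.49 ± 1.28 in AFSCs to 82.2 ± 29.1 in ASCs. E2f2, an activating E2F factor, also rose in both (1.37 and 1.61), Cdkn2d, the gene of p19INK4d, fell against ESCs (-0.92), and Rb1 and Cks1b fell against AFSCs (-1.49 and -1.72).

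Of 21 E2F target and replication genes, 1 was higher and 10 lower in ASCs than in ESCs (26.4% and 23.9% of all genes), with a median of -0.35 against 0.02 over all genes. Tk1 and Gins1 fell (-1.01 and -0.88) and Pola1 rose (0.95). Against AFSCs, 7 were higher and 4 lower (32.8% and 31.2% of all genes), with Pola1 (1.84) and Mcm6 (0.87) up and Tk1 (-0.94) down. Of 14 tested S, G2 and M phase cyclins and kinases, 2 were higher and 3 lower than in ESCs and 4 were higher and 5 lower than in AFSCs, counts near or below the shares of all genes. Ccna1, cyclin A1, was called higher in both, on 10 to 16 counts per sample in ASCs, 0 or 1 in ESCs and 2 to 5 in AFSCs.

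Of 19 p53 pathway genes other than Cdkn1a, 11 were lower and 4 higher in ASCs than in ESCs (23.9% and 26.4% of all genes), and the median was -0.53 against 0.02 over all genes. Trp53 itself was 864 ± 61.8 in ESCs and 478 ± 99.8 in ASCs (log2 fold change -0.88), Tigar and Plk2 fell further (-1.52 and -1.24), and Perp and Gadd45a rose (2.20 and 1.97). From ESCs to EpiLCs, where Cdkn1a fell most, 12 were lower and 2 higher (26.6% and 28.7% of all genes), with a median of -0.77. A link of the listed genes to the Cdkn1a levels was not tested in any comparison. Against AFSCs, 12 were lower and 5 higher in ASCs (31.2% and 32.8% of all genes), with Perp (-2.77) and Plk2 (-1.24) down and Mdm4 (1.5) up. Pmaip1 had the largest called rise of the list there, from few counts in AFSCs. Between AFSCs and EpiSCs, where Cdkn1a was not called (adjusted p = 1), 13 were higher and 3 lower in AFSCs (21.6% and 17.8% of all genes).

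Of 14 MYC and ID genes, 6 were higher and 4 lower in ASCs than in ESCs (26.4% and 23.9% of all genes). Id1 and Id3, inhibitors of differentiation downstream of BMP, rose in ASCs against ESCs (3.33 and 3.92), and Mycl and the WNT target Axin2 fell (-1.20 and -0.97). Against AFSCs, 7 were higher and 3 lower (32.8% and 31.2% of all genes). Id4 and Id1 led the rises (4.5 and 3.37), and Mxd4 and Myc fell (-2.28 and -2.10). Myc was 8.63 ± 1.42 in ESCs, 53.9 ± 14.4 in ASCs and 227 ± 30.6 in AFSCs, so that it rose in ASCs against ESCs (2.61). In ESC-ASCs, 10 of the 14 were lower and 1 higher than in ASCs (27.7% and 23% of all genes). Of 10 Polycomb and other repressors of the Cdkn2a locus, 2 were higher and 2 lower in ASCs than in ESCs (26.4% and 23.9% of all genes). In ASCs, 8 were higher than in AFSCs (32.8%) and the other 2 were not called. Cbx8, a Polycomb subunit, fell against ESCs (-2.10) and was called higher than in AFSCs, on 9 to 19 counts per sample against 1 to 3. Tbx3, a repressor of Cdkn2a transcription that is also in the naive list, had 0 or 1 count in AFSCs and a level of 385 ± 24.8 in ASCs. Bmi1 was 27.4 ± 11.1 in ASCs, 51.2 ± 1.44 in ESCs and 11.9 ± 5.64 in AFSCs. Against EpiSCs, where Cdkn2a was nearly missing, 8 of these repressors were higher in ASCs and 0 lower (35.9% and 30.7% of all genes). In AFSCs against EpiSCs, 1 was higher and 3 lower (21.6% and 17.8%). A link to the Cdkn2a levels was not tested.

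The genes whose pattern was most like that of each member were found by Pearson's r of log2 normalized counts over the 18 samples. The samples share 6 groups of 3 and their size factors, so r is a description and carries no test. Ccnd2 was most like Obsl1 (0.982), Add2 (0.977) and Eomes (0.970), the last a T-box factor of the primitive streak. Ccnd3 was most like Nanog (0.958), a core pluripotency factor, then Ddah1 (0.956) and Rreb1 (0.944). Ccnd1 was nearest to Cnot3 (0.954), Ccne1 to Krt12 and Wt1 (0.946 each), Ccne2 to Fam193b (0.932) and Cdkn1b to Rbm7 (0.944).

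Cdkn1a was nearest to Atg4b (0.962) and Mark4 (0.945). Cdkn2a was nearest to the metallothionein genes Mt1 (0.979) and Mt2 (0.976), but without the EpiSC samples, over 15 samples, r fell to 0.776 and 0.783. Cdkn2b was nearest to Gm17669 (0.922, and 0.792 without EpiSCs) and Cdkn2c to Proca1 (0.938). Among the members themselves, Ccne1 and Cdkn1a ran opposite to each other (Pearson's r = -0.84), as did Ccnd2 and Cdkn2a (-0.79). So did Ccnd3 and Ccne1 (-0.78) and Ccnd2 and Cdkn2c (-0.70). Ccnd3 and Cdkn1a (0.79) and Cdkn2a and Cdkn2b (0.81) ran together. EpiLCs had the highest Ccne1 mean and the lowest Ccnd3 and Cdkn1a means. EpiSCs had the highest Ccnd2 mean and the lowest Cdkn2a, Cdkn2b and Cdkn2c means. The r between members without these groups was not computed, so its dependence on them is not known. Outside EpiSCs, EpiLCs lay above AFSCs for Cdkn2a (227 and 114) but not for Cdkn2b (9.24 and 13.4, not called).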

How the data were processed

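PolyA RNA of 18 samples was sequenced from directional libraries. The authors aligned reads with TopHat2 to GRCm38 and deposited raw counts per Ensembl gene from featureCounts 1.5.0-p1, run without strand and with fragments of several alignments or several genes counted, so overlapping genes and close copies share fragments. Groups came from the sample labels. Of 35773 gene IDs, 35514 were matched to symbols.

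The 16901 genes that reached 10 counts in 3 or more samples were tested with edgeR 4.0.16 in R 4.3.3 (TMM, robust quasi-likelihood F test, all 18 samples, group as the only term, Benjamini-Hochberg within each comparison, threshold 0.05). Standard errors are the log2 fold change divided by the root of F. Levels are counts scaled by size factors from DESeq2 1.42.0 and then divided by exonic kb. The procedure was also run on simulated counts, in which a small set of genes changed in ESCs only, read in EpiLCs against ESCs. Far fewer genes changed there than were called in these data, so that run does not measure the error rate here.

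The members, the lists and the comparisons were chosen with earlier results of these data known. All 10 members were named, with up to 3 genes of highest Pearson's r per member (pseudocount 1), and from each list up to 2 of the largest called rises and 2 of the largest called falls in ASCs against ESCs and against AFSCs. Trp53, Mtap, Klhl9 and Gm13275 fall outside this rule and were added after their values were seen. Genes the rule names with few counts in a group, such as Pmaip1 with 2 or 3 per sample in AFSCs against 209 to 234 in ASCs, are given without a fold. Some genes that the rule names are not reported here. Same-numbered samples were not treated as pairs, and no 2 samples held identical values. The alternatives tried were other scalings, other filters, DESeq2, a replicate block, only the compared groups, fold limits and leaving out each sample, and leaving out the 6 replicate 1 samples was added after seeing the data. Promoter windows came from a table of RefSeq starts (GRCm38.p6), in which 7 of the 10 members were matched. Python 3.11.15, pandas 2.3.3, numpy 2.4.6 and matplotlib 3.10.9 were used.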

Additional observations from a re-analysis of the deposited data

Results flagged for a closer look

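For 7 of the 10 members the change after culture in ABCL medium differed between cells that came from AFSCs and cells that came from ESCs, by the contrast of both changes in edgeR's quasi-likelihood fit. The same contrast called 58.5% of all tested genes, so the count does not set the members apart. The difference of the log2 fold changes (from AFSCs minus from ESCs) was 2.63 for Ccnd1, -2.78 for Ccnd2, 1.78 for Ccnd3, -0.76 for Cdkn1b, 2.30 for Cdkn2a, 2.06 for Cdkn2b and 2.24 for Cdkn2c. Leaving out any 1 of the 18 samples kept all 7 calls, and without AFSC replicate 1 Ccne2 was called as well (0.84). The contrast also carries differences between the starting cells. AFSCs against ESCs gave log2 fold changes of 3.75 for Ccnd2 and -1.29 for each of Ccnd1 and Ccnd3. The values were -0.65 for Cdkn1b, -1.63 for Cdkn2a, -1.96 for Cdkn2c and -0.60, not called, for Cdkn2b. The route from ESCs rests on the ESC-ASC samples, whose greater depth, separate counting folder and possibly other line than the ESC samples cannot be told apart from their group.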

How the results depend on the processing

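Of the 100 single-gene results, DESeq2's Wald test and DESeq2 size factors each kept the direction and the side of the threshold for 97, the fit without a filter for 91 and upper quartile scaling for 89. Leaving out 1 sample at a time lost 43 calls and gained 20, and moved no count of called members by over 1.5 times. Without the 6 replicate 1 samples, chosen after seeing the data, 86 were kept.

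No result called in the reported fit changed sign in any alternative run, but 17 results that were not called did, in 49 values. With upper quartile scaling the log2 fold change became 0.035 for Ccne1 in ESC-ASCs against ESCs and 0.054 for Ccne2 in ASCs against ESCs, and the effect of ABCL medium by origin became -0.0022 for Ccne1 and -0.060 for Ccne2. With no filter, that effect was -0.024 for Ccne2, and Cdkn1a in AFSCs against EpiSCs was 0.017. With at least 10 counts in every sample, Ccne2 in ASCs against ESCs was 0.053 and Cdkn1a in AFSCs against EpiSCs 0.0014. With only the compared groups, Cdkn1a in AFSCs against EpiSCs was 0.0011 and Cdkn2c in ESC-ASCs against ESCs -0.0032. Without the replicate 1 samples, Ccne2 was 0.17 against ESCs and 0.24 against AFSCs in ASCs, Cdkn2a was 0.089 in ASCs against EpiLCs, and in AFSCs against EpiSCs Cdkn1a was 0.15 and Cdkn2c -0.52.

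Leaving out single samples gave ranges across 0 for the rest of these. For Ccnd3 in ASCs against EpiSCs it was -0.10 to 0.17. Ccne1 ran from -0.11 to 0.14 in ASCs against AFSCs, -0.053 to 0.18 in ASCs against EpiSCs, -0.043 to 0.17 in AFSCs against EpiSCs and -0.037 to 0.21 for the effect by origin. Ccne2 ran from -0.26 to 0.30 in ASCs against ESCs, -0.74 to 0.38 in ASCs against AFSCs, -0.026 to 0.38 in EpiSCs against EpiLCs and -0.34 to 0.84 for the effect by origin. Cdkn1a ran from -0.12 to 0.19 in AFSCs against EpiSCs and -0.042 to 0.32 for the effect by origin. Cdkn2c ran from -0.22 to 0.52 in ASCs against ESCs, -0.12 to 0.14 in ESC-ASCs against ESCs, -0.51 to 0.23 in ESC-ASCs against ASCs and -0.28 to 1.80 in AFSCs against EpiSCs.

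Counts of called members moved with the limit on size. With a log2 fold change beyond 1, the count was 3 for ASCs against ESCs (25.8% of all genes). It was 2 for ASCs against AFSCs (39.4%) and 4 for ASCs against EpiLCs (34.8%). For ESC-ASCs against ASCs it was 3 (24.5%), and for AFSCs against EpiSCs it was 2 (20.8%). With a limit of 2 and a mean log2 level above 3, it was 1 for ASCs against ESCs (6.51% of all genes), 0 for ASCs against AFSCs (14.1%), 0 for ASCs against EpiLCs (9.98%), 3 for ASCs against EpiSCs (16.5%), 1 for ESC-ASCs against ESCs (11.2%), 0 for ESC-ASCs against ASCs (5.84%), 2 for EpiLCs against ESCs (12.2%), 3 for EpiSCs against EpiLCs (9.37%), 2 for AFSCs against EpiSCs (5.8%) and 4 for the effect by origin (21.2%). A filter of at least 10 counts in every sample drops the 3 INK4 genes from the members and leaves 10821 genes tested. With it, the count was 2 for ASCs against EpiSCs (6865 of these genes) and 2 for AFSCs against EpiSCs (4161). It was 4 for the effect by origin (6148).

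Over all genes, same-numbered samples did not meet the mark for pairing (r from -0.206 to 0.46, 19 of 45 pairs over 0.1, 7 of 18 samples correlating best with their own number), although replicate 1 was lowest in 5 of 6 groups for 4 members. With the replicate block 93 results were kept, 6 calls were gained and Ccnd3 in ASCs against EpiSCs was -0.0071. EpiLCs against ESCs then had 10 called members. Of all 16901 tested genes, 9722 were called there with the block and 9339 in the reported fit. Cdkn2b, Cdkn2c and, in ESCs, Ccnd2 rest on few counts.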
